A study of Mus musculus with 6 samples.

Results

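The genes described here encode 7 enzymes of cholesterol synthesis, Hmgcs1, Idi1, Fdft1, Sqle, Lss, Cyp51 and Dhcr7, taken by gene symbol from a table of 25353 genes measured in mouse germinal vesicle (GV) oocytes. All 7 were found and all 7 passed the filter on low values. They were grouped as genes of cholesterol synthesis and uptake, but each is a synthesis enzyme and none is an uptake receptor, so uptake genes were described from a separate list. GV oocytes are fully grown female germ cells held at prophase of meiosis. There were 3 wild-type (WT) libraries and 3 labelled knockout (KO), each from 5 pooled GV oocytes of C57BL/6J mice, with 6450191 to 7992598 reads assigned to genes per library. Oocytes were freed from collagenase-digested ovaries, and the protocol also describes oocytes taken from secondary follicles. The protocol gives an age of 8 weeks, and the age field reads P1. The series title and design text give the knockout as Mfn2-/-, whereas the genotype and protocol fields read Mfn1-/-. The labels used here do not say how the deletion was made or whether each pool came from its own mouse. P-values therefore measure the spread between these pools, which may be technical.

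Mfn2, the mitochondrial fusion GTPase named in the title, stood at 25.5, 38.1 and 32.3 normalized read counts (reads scaled by the library's size factor) in WT and at 5.25, 5.28 and 4.50 in KO. Its log2 fold change in KO against WT was -2.44 (adjusted p = 0.00487 by limma on log2(value + 1), over all genes tested), whereas Mfn1 did not pass the test (log2 fold change 0.19, adjusted p = 0.482). All 14 oocyte markers examined had reads in every library, with Ooep and Dppa3 the most abundant of them, and 2 of the 14 fell, Nlrp5 and Zar1, where 1.41% of the 18762 genes tested fell. The oocyte markers summed to 193527 to 234866 normalized counts in WT and 147001 to 196707 in KO. Ooep stood at 30840 to 32000 in WT and 24940 to 28040 in KO, and Dppa3 at 30090 to 31330 and 24000 to 26330, so neither overlapped between the groups. Neither passed the test, and the groups did not overlap in 23.2% of all genes tested (11.7% lower in KO). Granulosa and cumulus markers summed to 2881 to 3657 normalized counts in WT and 2746 to 3374 in KO, most of it from Serpine2 and Cyp19a1, and 0 of 14 tested passed the test. Between 1 and 3 of the 16 granulosa markers in the table were at 0 in a library, and the defining genes Foxl2 and Amh were each at 0 in 4 of 6 libraries. Inha, an inhibin subunit, had reads in every library, with 171, 33.5 and 41.55 normalized counts in WT and 28.4, 63.4 and 101 in KO. WT replicate 1 was also the highest library for Hsd17b1 (54.3, against 4.65 to 13.7 in the others) and Inhba (23.3, against 1.86 to 9.51). Other markers of the list differed. WT replicate 1 was the lowest library for Fshr (5.5, against 8.40 to 24.3) and Serpine2 (2105, against 2208 to 2967). Cyp19a1 was highest in WT replicate 3, at 363 to 445 in WT and 301 to 336 in KO. The Cyp19a1 groups thus did not overlap, with KO lower, as in 11.7% of all genes tested. Theca and steroidogenic markers, chiefly Hsd3b1 and Cyp11a1, summed to 1892, 17.7 and 322 in WT replicates 1, 2 and 3, against 9.5, 21.1 and 54.0 in KO. Of the 3 tested, 2 fell, Cyp11a1 and Lhcgr, where 1.41% of all genes tested fell. Hsd3b1 overlapped between the groups and did not pass (adjusted p = 0.466 by limma). Stromal markers summed to 152, 31.6 and 26.8 in WT and to 8.1 to 11.6 in KO, and 1 of the 2 tested fell, Dcn. Immune markers summed to 85.4, 24.2 and 47.1 in WT and to 12.7 to 17.9 in KO. WT replicate 1 was the highest library for each of these last 3 lists. Endothelial markers, mostly Pecam1, and surface epithelium markers, mostly Upk3b, overlapped between the groups, and none of them passed. In pooled cells, fewer cells of a type and less RNA per cell cannot be told apart.

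Cholesterol is built from acetyl-CoA through mevalonate and isoprenoid units to squalene, which is oxidised, closed into lanosterol and trimmed to cholesterol. When membrane sterol falls, the transcription factor SREBP-2 is carried by SCAP to the Golgi, cut there, and switches on genes of the route and of lipoprotein uptake. Mouse oocytes are known for making little cholesterol of their own: the surrounding cumulus cells run the pathway under the influence of oocyte growth factors and supply the oocyte. The direct product of CYP51, an intermediate of the route called follicular fluid meiosis-activating sterol, is known for its effect on the resumption of meiosis in culture.

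The stretch before the start site of 4 of these genes is shown because it is where SREBP-2 and its partner NF-Y act on the pathway, and because the 4 genes differ in the levels described below, Hmgcs1 and Idi1 being among the higher and Lss and Cyp51 among the lower. Each sequence is the 250 bases before the RefSeq start site on the strand of the gene (GRCm38.p6), and capitals mark a match to CACNCCA, the core of a sterol regulatory element, or to CCAAT, the NF-Y box, on either strand. They lie at chr13:119690101-119690350 (plus strand, Hmgcs1), chr13:8885356-8885605 (plus strand, Idi1), chr10:76531355-76531604 (plus strand, Lss) and chr5:4104698-4104947 (minus strand, Cyp51).
Hmgcs1: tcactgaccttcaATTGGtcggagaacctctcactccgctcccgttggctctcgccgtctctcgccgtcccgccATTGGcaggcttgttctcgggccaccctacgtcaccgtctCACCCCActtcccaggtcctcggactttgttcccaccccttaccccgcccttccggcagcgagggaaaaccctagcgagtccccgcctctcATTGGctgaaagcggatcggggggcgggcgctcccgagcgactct
Idi1: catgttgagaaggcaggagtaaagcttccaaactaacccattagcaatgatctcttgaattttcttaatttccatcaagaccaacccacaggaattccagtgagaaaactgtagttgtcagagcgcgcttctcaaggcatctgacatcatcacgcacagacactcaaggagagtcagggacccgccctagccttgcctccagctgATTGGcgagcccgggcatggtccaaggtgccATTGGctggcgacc
Lss: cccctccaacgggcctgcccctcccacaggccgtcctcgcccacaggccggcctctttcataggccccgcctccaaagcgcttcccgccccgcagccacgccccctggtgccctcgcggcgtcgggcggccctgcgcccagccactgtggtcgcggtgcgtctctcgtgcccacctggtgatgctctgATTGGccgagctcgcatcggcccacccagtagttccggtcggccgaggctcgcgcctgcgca
Cyp51: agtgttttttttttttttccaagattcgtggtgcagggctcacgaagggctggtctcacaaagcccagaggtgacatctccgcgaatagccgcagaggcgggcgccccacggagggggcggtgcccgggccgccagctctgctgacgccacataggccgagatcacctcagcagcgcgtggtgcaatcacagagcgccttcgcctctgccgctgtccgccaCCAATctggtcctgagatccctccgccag

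The RefSeq table held 5 of the 7 genes, with 3 start sites for Dhcr7. The sterol regulatory core was found before Hmgcs1, once, 136 bases ahead of the start, and at none of the other 6 start sites. At least 1 NF-Y box stood before Hmgcs1 (3 matches), Idi1 (2), Lss (1), Cyp51 (1) and the third start of Dhcr7 (2). Except for Hmgcs1, the RefSeq starts lie inside the gene limits given below, as do the NF-Y boxes of Idi1, Cyp51 and Dhcr7. Across 32851 promoters of the same length, 15.6% held the sterol regulatory core and 33.8% the NF-Y box. The Sp1 box, searched on both strands as GGGCGG, was found before all 5 genes and in 32.7% of all promoters, and the motifs did not overlap one another before the 4 genes shown. These are exact matches of letters and say nothing of binding. Sites spelled otherwise were not searched for.

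The 7 genes stood at very different levels, in an order that both groups shared for the upper 4. Per kilobase of the longest protein-coding transcript, and over all 6 libraries, Fdft1 averaged 1706 normalized counts per kb, Hmgcs1 397, Idi1 96.1, Sqle 24.7, Cyp51 6.27, Dhcr7 5.66 and Lss 4.92. Fdft1 stood 347 times above Lss. Each of the upper 4 was 3.89 to 4.29 times the next gene in the order, and the 6 libraries of 1 gene never overlapped those of the next from Fdft1 down to Cyp51. Cyp51 (4.54 to 9.31 per kb), Dhcr7 (4.11 to 7.49) and Lss (3.15 to 9.03) overlapped and cannot be ordered. Among 18125 tested genes with a known length, Fdft1 was at percentile 97.6 of level per kb, Hmgcs1 at 90.0, Idi1 at 75.1, Sqle at 55.4, and the last 3 between 30.6 and 34.5. The order was the same when lengths were taken as all annotated exons of a gene, although Lss then dropped to 2.13 per kb.

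Together the 7 genes took 1076 to 1176 CPM (reads scaled to library total) in WT and 1096 to 1218 in KO, ranges that overlapped. Most of that level sat before the oxidation of squalene. Sqle, Lss, Cyp51 and Dhcr7, which act after squalene, made up 2.39%, 1.68% and 1.87% of the summed level per kb in WT (replicates 1, 2, 3) and 1.68%, 1.87% and 1.602% in KO. The highest share was that of WT replicate 1, and the other 5 libraries lay between 1.602% and 1.87%. Fdft1 alone made up 77.0% to 77.2% of the summed level per kb in WT and 71.5% to 77.5% in KO.

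**Figure D1:**
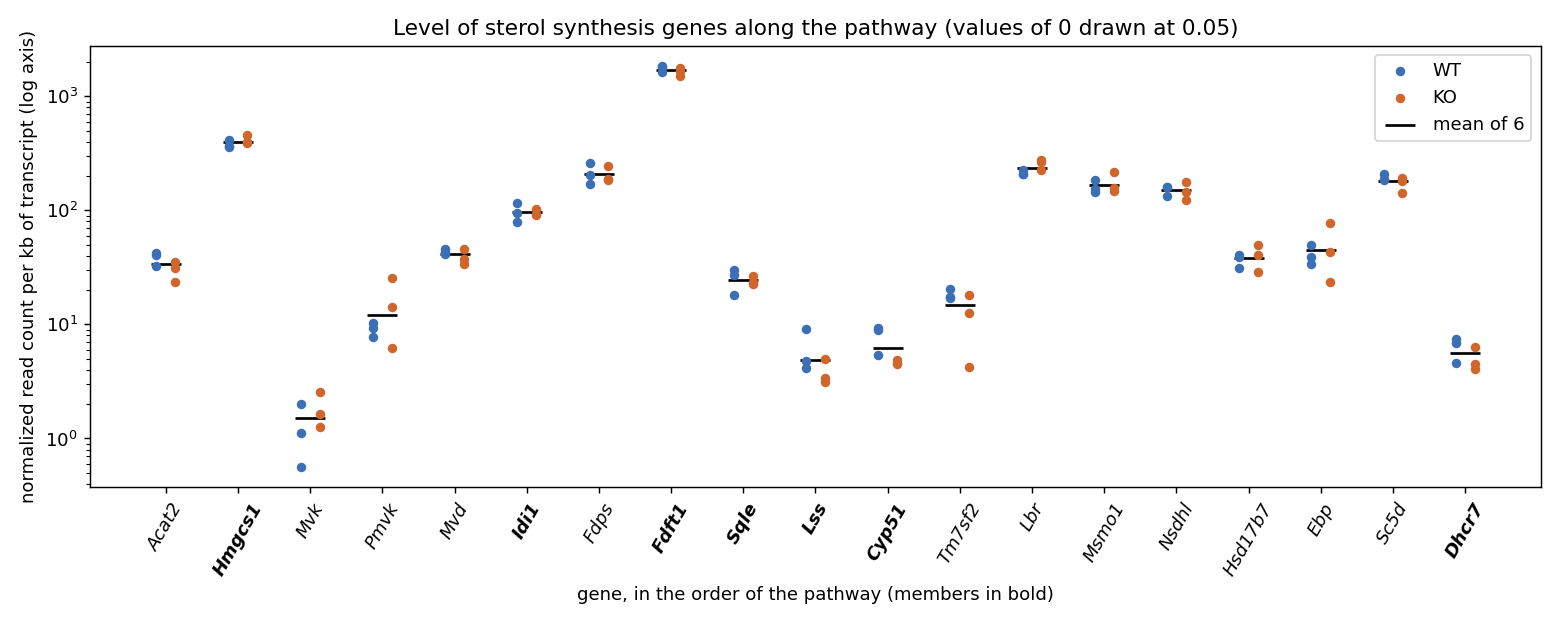
Normalized read count per kb of transcript (log axis) for 19 genes of the sterol route in pathway order, with each WT library in blue, each KO library in orange and a bar for the mean of 6 libraries. Fdft1 has the highest mean, 1706 per kb, and the means of Mvk, Lss, Cyp51 and Dhcr7 lie under 7 per kb.

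No member passed the limma test between KO and WT (0 of 7), where 3.28% of the 18762 genes tested did, 1.87% higher and 1.41% lower in KO. edgeR on the recovered reads called 0 of 7, against 6.03% of the genes it tested, and DESeq2 0 of the 6 to which it gave an adjusted p, all but Dhcr7, against 7.79%. At an unadjusted p under 0.05, 1 of 7 passed, Cyp51, lower in KO, against 18% of all genes tested, 8.83% lower and 9.16% higher. The median log2 fold change was -0.08 over the 7 genes, with 6 below 0, and -0.01 over all genes tested. The groups did not overlap in 1 of 7, again Cyp51, and in 23.2% of all genes tested (11.7% lower and 11.5% higher in KO). With 7 genes, 1 is near the background share on both measures.

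**Figure D2:**
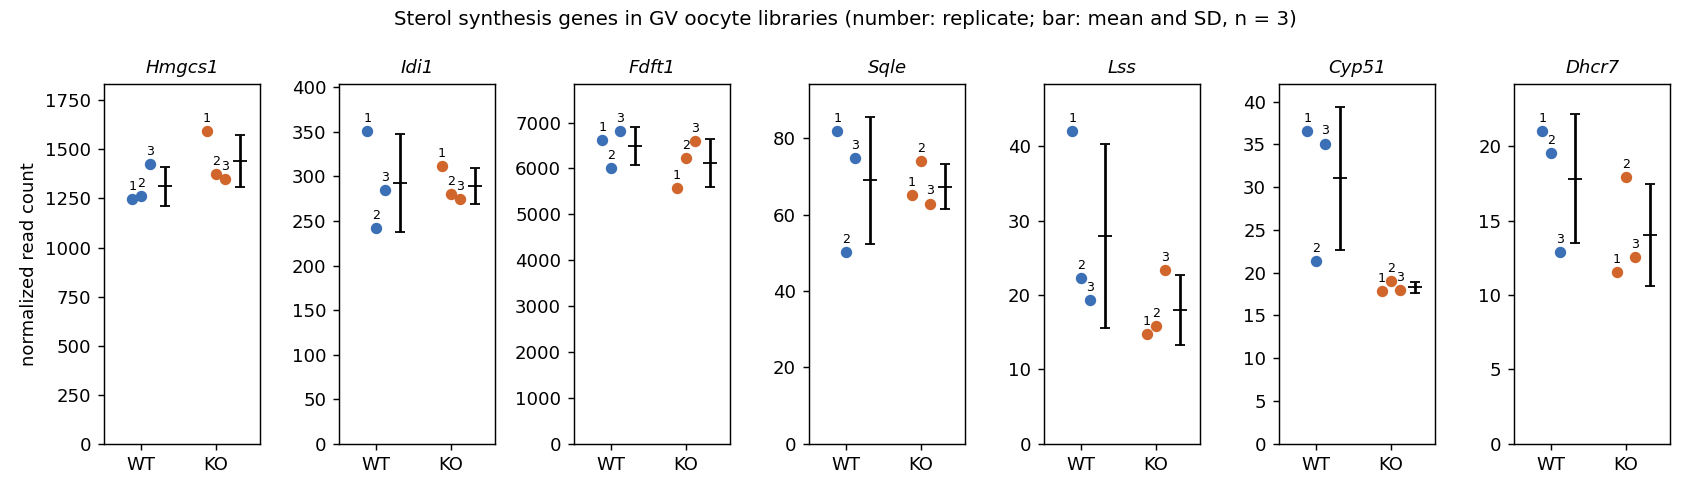
Normalized read counts of the 7 genes in each library (number, replicate), with the group mean and SD beside the points (n = 3) and axes from 0. KO and WT points overlap in every panel except Cyp51, where the KO libraries lie at 17.9 to 19.0 and the WT libraries at 21.4 to 36.6.

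Hmgcs1, the cytosolic synthase that condenses acetyl units into HMG-CoA (chromosome 13, 119690379 to 119708260, plus strand, GRCm38), had 1249, 1261 and 1427 normalized counts in WT and 1596, 1376 and 1351 in KO. The highest library was KO replicate 1 and the groups overlapped. The means were 1312 ± 99.4 and 1441 ± 135 (WT and KO, SD, n = 3), and KO against WT gave a log2 fold change of 0.13 (SE 0.11) with an adjusted p of 0.578 by limma. The 95% limits on the fold were 0.934 and 1.29. The log2 value was 0.06 without KO replicate 1 and 0.02 after a correction for GC content and length. Hmgcs1 shares 16.1% of its transcript with the antisense model Gm48342, and these libraries keep no strand.

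Idi1, the isomerase that makes the second isoprenoid building block (chromosome 13, 8885501 to 8892451, plus strand), had 351.5, 242 and 285 normalized counts in WT and 312, 280.0 and 275 in KO. All 3 KO values lay inside the WT range. KO against WT gave -0.0043 on the log2 scale, with an SE of 0.15 (adjusted p = 0.993 by limma) and 95% limits on the fold of 0.801 to 1.24. Its value is uncertain as to source, since 28.6% of its 75-base windows also match other models, Gm13502 and Gm8911 among them.

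Fdft1, squalene synthase, which joins farnesyl units and commits them to sterols (chromosome 14, 63145150 to 63179578, minus strand), was the most abundant of the 7. It had 6625, 6014 and 6824 normalized counts in WT and 5562, 6223 and 6597 in KO. KO replicate 1 was the lowest library, and the other KO values lay within the WT range. KO against WT gave -0.08 on the log2 scale, with an SE of 0.10 (adjusted p = 0.739 by limma) and 95% limits on the fold of 0.810 to 1.099. It was at -0.02 without KO replicate 1, -0.05 without WT replicate 3, and -0.14 without WT replicate 2 or KO replicate 3. Fdft1 overlaps the lysosomal protease gene Ctsb on the other strand over 774 bases, 20.9% of its transcript, and with a further copy, Gm6781, 35.2% of its windows are shared. Ctsb had 600, 435 and 555 normalized counts in WT and 286, 618 and 1018 in KO, all far below Fdft1.

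Sqle, squalene epoxidase, the first oxygen-dependent step and a known point of control (chromosome 15, 59315077 to 59331192, plus strand), had 82.1, 50.2 and 74.8 normalized counts in WT and 65.1, 73.96 and 62.95 in KO. The KO values lay inside the WT range. KO against WT gave -0.0082 on the log2 scale, with an SE of 0.23 (adjusted p = 0.992 by limma) and 95% limits on the fold of 0.712 to 1.39. None of its windows matched another gene.

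The 3 low genes were less precisely measured. Lss, the cyclase that folds the oxidised squalene into lanosterol (chromosome 10, 76531588 to 76557138, plus strand), had 42.1, 22.3 and 19.4 normalized counts in WT and 14.7, 15.85 and 23.4 in KO. WT replicate 1 stood above the other 5, which overlapped. KO against WT gave -0.56 on the log2 scale, with an SE of 0.37 (adjusted p = 0.463 by limma) and 95% limits on the fold of 0.398 to 1.16. Without WT replicate 1, the library highest in theca, stromal and immune markers, it was -0.23 (adjusted p = 0.844 by limma). Leaving out 1 of the other libraries instead gave -0.77 to -0.43. The part of other cell types in the Lss values was not tested.

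Cyp51, the lanosterol demethylase that yields the meiosis-activating sterol (chromosome 5, 4081145 to 4104746, minus strand), had the smallest p of the 7. It had 36.6, 21.4 and 35.1 normalized counts in WT and 17.9, 19.0 and 17.99 in KO, from 33, 23 and 38 reads and 17, 18 and 20 reads. All KO libraries were below all WT libraries, but WT replicate 2 lay close to the KO values. KO against WT gave -0.69 on the log2 scale, with an SE of 0.32 (adjusted p = 0.271 by limma), so Cyp51 did not pass, and 95% limits on the fold of 0.384 to 0.995 end just under no change before adjustment. The KO libraries differed from each other by an SD of 0.64, less than the 4.29 that counting alone (the square root of the reads) gives at this depth, whereas the WT SD of 8.38 exceeded its 5.53. WT replicates 1 and 3, the higher for Cyp51, were also those with the highest theca marker sums (1892 and 322, against 17.7 in WT replicate 2). The part of those cells in the Cyp51 values was not tested, and leaving out WT replicate 1, 2 or 3 gave -0.56, -0.93 and -0.59 on the log2 scale. Over the alternatives that tested it, its adjusted p ranged from 0.1825 to 0.528. Cyp51 overlaps Akap9 on the other strand over 166 bases, 4.22% of its transcript, and 2.6% of its windows are shared. Akap9 had 489, 518 and 555 normalized counts in WT and 320, 449 and 491 in KO (log2 fold change -0.33, adjusted p = 0.251 by limma). How many of the Cyp51 reads came from Akap9 was not tested.

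Dhcr7, the reductase of the last steps that also handles the vitamin D precursor (chromosome 7, 143823145 to 143848410, plus strand), had 21.1, 19.5 and 12.9 normalized counts in WT and 11.55, 17.96 and 12.6 in KO, from 11 to 21 reads a library. The groups overlapped and both spreads were close to counting error (SD 4.33 against 4.19 in WT and 3.44 against 3.75 in KO). KO against WT gave -0.32 on the log2 scale, with an SE of 0.38 (adjusted p = 0.721 by limma) and 95% limits on the fold of 0.460 to 1.39. It was at -0.19 without WT replicate 1, -0.20 without KO replicate 1, -0.50 without KO replicate 2 and -0.53 without WT replicate 3. For Lss, Cyp51 and Dhcr7 the limits thus include a fall to 0.460 of WT or further, a size that the limits of the upper 4 leave out.

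**Figure D3:**
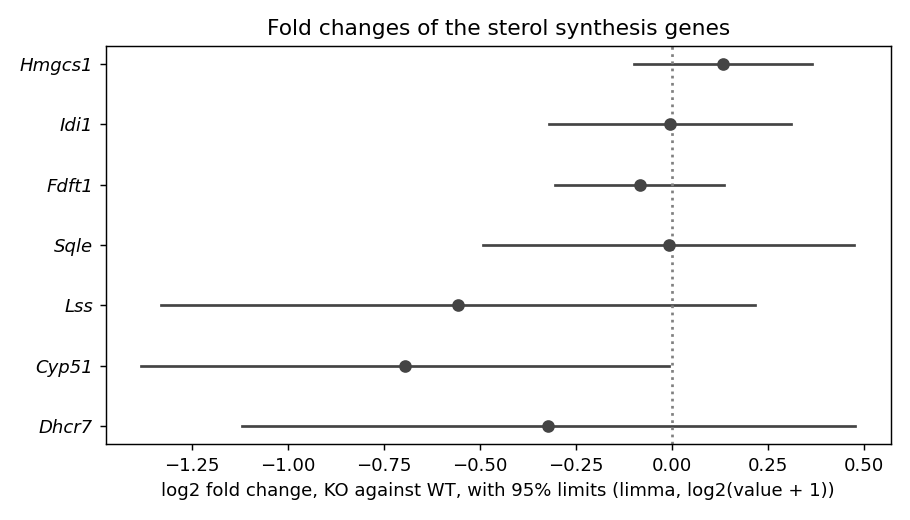
Log2 fold change of each gene in KO against WT on the log2(value + 1) scale (point) with its 95% limits from limma (line). The limits of Hmgcs1, Idi1, Fdft1 and Sqle lie between -0.49 and 0.47, whereas those of Lss, Cyp51 and Dhcr7 reach -1.12 or lower.

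By the shape of its values over the 6 libraries, the genes most like Cyp51 were Ppfibp1 (Pearson r = 0.997), Hspe1 (0.9968) and Atad2 (0.9927), among 11308 genes with a mean of at least 20 normalized counts. Ppfibp1 had 104, 81.8 and 102 in WT and 76.7, 76.1 and 75.5 in KO, and Hspe1 had 953, 817 and 938 against 789, 809 and 795. Like Cyp51, both were higher in WT replicates 1 and 3 than in WT replicate 2. None of the 3 passed the limma test, with adjusted p-values of 0.401, 0.432 and 0.102. The likeness is a description over libraries from the same 2 groups.

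Around the 7 genes, 13 other sterol and isoprenoid synthesis enzymes were examined from a list chosen with earlier results of these data known. Of these 13 none passed the limma test (1 at an unadjusted p under 0.05, against 18% of all genes tested), nor any of the 12 that edgeR tested or the 11 with an adjusted p from DESeq2. Their median log2 fold change was -0.03, with 7 below 0. Lbr, a sterol reductase of the nuclear envelope and the highest of the list per kb (234), had a log2 fold change of 0.25 (SE of 0.11; adjusted p = 0.256 by limma, and 0.15 after the GC and length correction). Fdps, which makes the farnesyl substrate of Fdft1, was next at 209 per kb (log2 fold change -0.03), but 90.6% of its windows match other models. Tm7sf2, a sterol reductase of the endoplasmic reticulum, had 25.5, 26.0 and 30.5 normalized counts in WT and 6.30, 19.0 and 27.0 in KO. KO replicate 1 was the lowest library and KO replicate 3 lay within the WT range (log2 fold change -0.82, SE of 0.43; adjusted p = 0.337 by limma, and -0.26 without KO replicate 1). Mvk, mevalonate kinase, singled out after its values were seen, stood at 1.52 per kb, with 1 to 4 reads a library. The median level of 12 other enzymes of the sterol route was 43.0 per kb, and over all tested genes with a length 17.3.

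Genes that regulate the route made up a second list, with 10 genes described here, of which none passed the limma test (3 at an unadjusted p under 0.05, against 18% of all genes tested), nor any of the 9 that edgeR tested or the 8 with an adjusted p from DESeq2. Their median log2 fold change was 0.12 and 6 lay above 0. Nr1h2, the sterol-sensing receptor LXR-beta, had 213, 188 and 174 normalized counts in WT and 155.5, 111 and 136 in KO. KO was below WT in all libraries, as in 11.7% of all genes tested (log2 fold change -0.52, SE of 0.17, adjusted p = 0.102 by limma). Without KO replicate 1 the adjusted p of Nr1h2 was 0.0361 by limma. With 1 of the other libraries left out instead, it was 0.155 to 0.298. Scap, the SREBP escort, had 298, 343 and 286 in WT and 459, 382.5 and 363 in KO. KO was above WT throughout, as in 11.5% of all genes tested (log2 fold change 0.37, SE 0.14, adjusted p = 0.147 by limma). Rnf139, a ubiquitin ligase of the endoplasmic reticulum, was the highest per kb at 145, with a log2 fold change of 0.22 (0.067 after the GC and length correction and 0.099 without KO replicate 1). Windows of Rnf139 are shared in 28.1% of cases, chiefly with Tatdn1 on the other strand. Insig1, which holds SCAP back when sterol is plentiful, followed at 128 per kb, with 386, 358 and 317 normalized counts in WT and 340.3, 356 and 316 in KO. The Insig1 groups overlapped (log2 fold change -0.06, adjusted p = 0.850). The SREBP genes, singled out afterwards, differed in level: Srebf1 stood at 22.3 per kb and Srebf2, the form that drives cholesterol genes, at 1.599. Srebf1 had 106.5, 105 and 110 normalized counts in WT and 102, 66.6 and 85.4 in KO. The Srebf1 groups did not overlap, with KO lower, as in 11.7% of all genes tested. Srebf1 did not pass the test (log2 fold change -0.36, adjusted p = 0.359 by limma). Srebf2 had 11.1, 10.2 and 8.31 normalized counts in WT and 9.45, 4.23 and 5.40 in KO, groups that overlapped (log2 fold change -0.62, adjusted p = 0.536).

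Of 9 genes of lipoprotein uptake none passed the limma test (1 at an unadjusted p under 0.05, against 18% of all genes tested), nor any of the 7 that edgeR tested or the 5 with an adjusted p from DESeq2. Their median log2 fold change was -0.10. Cd36, a scavenger receptor, was the highest per kb at 228 (663, 735 and 771 normalized counts in WT, 768, 899 and 823 in KO, log2 fold change 0.20, adjusted p = 0.383, and 0.00040 after the GC and length correction). Apoe, the lipoprotein ligand, followed at 114 per kb, with 228, 194 and 158 normalized counts in WT and 77.7, 165 and 138.5 in KO. The Apoe groups overlapped through KO replicate 2 (log2 fold change -0.66, SE of 0.23; adjusted p = 0.136 by limma, and -0.34 without KO replicate 1).

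Of 15 genes of cholesterol transport and storage 14 were in the table, 13 were tested and none passed with limma (3 at an unadjusted p under 0.05, against 18% of all genes tested), nor any of the 10 that edgeR tested or the 9 with an adjusted p from DESeq2. Their median log2 fold change was -0.01. Npc2, a cholesterol carrier within the lysosome, stood highest per kb (log2 fold change -0.19, adjusted p = 0.39 by limma), and the esterase gene Nceh1 at 228 (0.01). Osbp, a carrier of sterol between the endoplasmic reticulum and Golgi, had 95.4, 70.7 and 82.2 normalized counts in WT and 125, 117 and 136 in KO. The Osbp groups did not overlap, with KO higher, as in 11.5% of all genes tested. Osbp did not pass the test (log2 fold change 0.61, SE of 0.18, adjusted p = 0.0793 by limma). Stard3, a late endosome sterol carrier, had 12.2, 1.86 and 2.77 in WT and 12.6, 10.6 and 23.4 in KO (log2 fold change 1.58, adjusted p = 0.143). Its WT replicate 1 lay within the KO range, and without that library the adjusted p was 0.048 by limma. Leaving out 1 of the other libraries instead gave 0.150 to 0.375. Stard3 rested on 11, 2 and 3 reads in WT, and DESeq2 gave it no adjusted p.

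**Figure D4:**
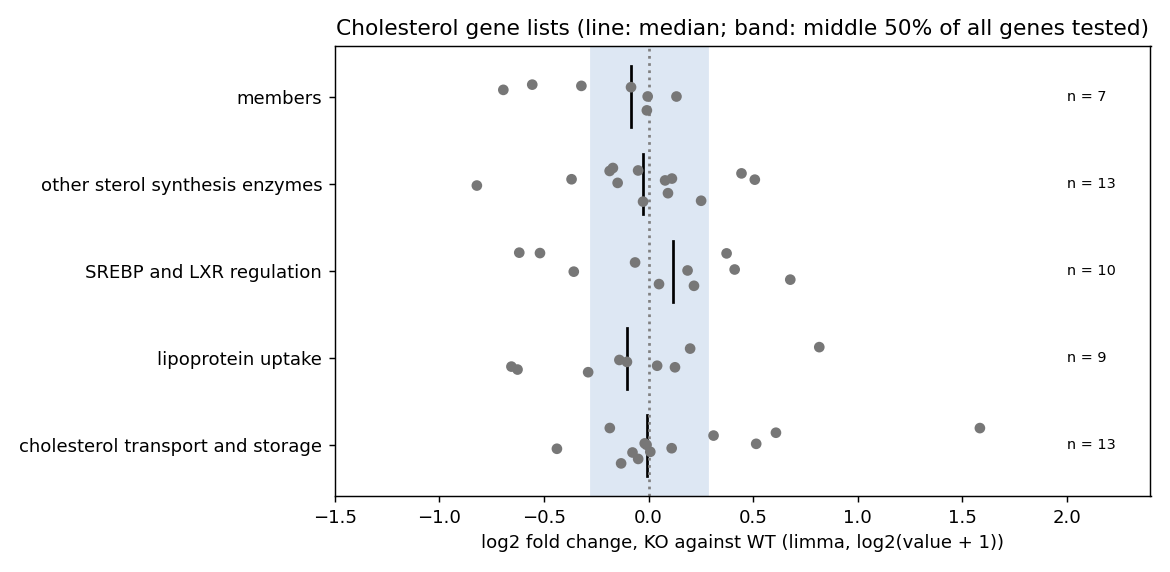
Log2 fold changes in KO against WT of the 7 members and the 4 other cholesterol lists (points), with the list median as a line and the middle 50% of all genes tested (-0.28 to 0.29) as a band. None of the genes drawn passed the limma test, and all list medians lie inside the band.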

How the data were processed

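RNA of 5 pooled GV oocytes per library was amplified by Smart-Seq2, built with Nextera XT and sequenced as 75-base pairs, per the labels' protocols; neither strand nor molecular identifiers are kept. The deposited table holds normalized read counts (unit: signal). Partek and DESeq2 stand in its title line, per the file headers, and its values are whole multiples of 1 step per library, the form of reads divided by a size factor. STAR, cutadapt, FastQC, DESeq, DESeq2, GRCm38 and mm10 are named in the submitters' processing notes; their versions and the annotation used are not given in these sources. Dividing by the value of 1 read (0.899 to 1.11) gave whole reads for 100% of values above 0 (tolerance 0.1). Limits from counts cover counting error alone, as reads of amplified cDNA without identifiers are not separate molecules.

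The 18762 genes that reached 1 in 3 or more libraries were compared as log2(value + 1), a scale that understates changes of low genes, by limma-trend (limma 3.58.1, R 4.3.3) with no covariate, Benjamini-Hochberg adjustment over all genes tested and a threshold of 0.05. Adjusted p-values are limma's unless another tool is named. edgeR 4.0.16 (789 of 13078 genes called) and DESeq2 1.42.0 on recovered reads were alternatives. The limma and edgeR fits were tested on simulated data. Replicate numbers showed no pairing of the libraries over all genes tested. Lengths and overlaps came from GENCODE M21 (95.5% of genes matched), and 75-base windows, every 25 bases, were aligned to its transcripts with minimap2 2.31-r1302, counting matches with at most 1 mismatch. Promoters are RefSeq's.

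Members and lists were chosen with earlier results of these data known. Some genes of the cholesterol lists are not reported here, and list counts, medians and figures cover the others. Named genes are the members, Mfn1 and Mfn2, and from each list those past the threshold, the 2 highest per kb and the 2 of smallest p; from marker lists, the 2 most abundant; and the 3 genes most correlated with the member of smallest p. Others are said to be singled out afterwards, and Foxl2, Amh, Inha, Hsd17b1, Inhba, Fshr, Ctsb and Akap9 were also chosen so.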

Additional observations from a re-analysis of the deposited data

How the results depend on the processing

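0 of the 7 members passed in each of 17 alternatives; Lss, Cyp51 and Dhcr7 were not tested under the filter of 5 CPM, and Dhcr7 got no adjusted p from DESeq2. Hmgcs1, Fdft1, Lss, Cyp51 and Dhcr7 kept their sign in the alternatives that tested them. Idi1 changed sign with TMM rescaling (0.0067) and quantile normalization (0.0065) and ranged from -0.13 to 0.14 as single libraries were left out, and Sqle changed sign with TMM (0.0027) and ranged from -0.22 to 0.13. After each library's dependence on GC and length was taken out, Fdps was at 0.038 and Nceh1 at -0.11, both with the sign changed, and Hmgcs1, Lbr, Rnf139 and Cd36 were nearer 0 (0.02, 0.15, 0.067 and 0.00040); leaving out single libraries gave -0.17 to 0.13 for Fdps, -0.16 to 0.18 for Nceh1 and -0.14 to 0.00082 for Insig1. Of the other pathway genes 0 passed in the 11 alternatives that keep all libraries, and 0 to 1 as single libraries were left out (Stard3 without WT replicate 1, Nr1h2 without KO replicate 1). The cause of each change was not tested.

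Over all genes, 615 passed the test, and as single libraries were left out the count ranged from 112 (without WT replicate 3) to 889 (without KO replicate 1); without WT replicate 1, 172 genes were higher and 90 lower, and the count was 189 without WT replicate 2, 321 without KO replicate 2 and 379 without KO replicate 3. After the same GC and length correction, 46.7% of calls were higher in KO, against 57.1% before. With the replicate block 421 genes passed. Same-numbered libraries deviated with correlations of -0.077, -0.018 and -0.036, and unlike-numbered ones with -0.048 to 0.077. Over all genes tested these values show no pairing by number, but a pairing that touches few genes may not show in them. Lss, Cyp51 and Dhcr7 rest on 11 to 38 reads a library, and the WT spread exceeded counting error for Lss (SD 12.4 against 5.19) and Cyp51.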
